A study of Mus musculus with 56 samples.

Results

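Binding of p65 in mouse bone marrow-derived macrophages (BMDMs) was compared between cells left untreated and cells exposed to IL-4 for 24 hr, with no bacterial stimulus in either group. All samples with the p65 antibody and no LPS were used, which gave 4 samples (2 untreated and 2 IL-4-treated) of the 56 in the series, and every peak of each sample entered the comparison, genome-wide. The cells came from the bone marrow of wild-type C57BL/6 mice aged 8 to 12 weeks, were grown for 6 days with L929 supernatant as the source of M-CSF, and received 20 ng/ml IL-4 for 24 hr (24hIL4_ctrl) or nothing (ctrl_ctrl). Chromatin was crosslinked with both DSG and formaldehyde before the p65 pulldown. Another 4 p65 samples, 2 exposed to 100 ng/ml LPS for 1 hr (ctrl_1hLPS) and 2 given IL-4 for 24 hr and then LPS for 1 hr (24hIL4_1hLPS), and RNA polymerase II samples of the untreated and IL-4 groups serve as separate measurements at the same sites.

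The protein p65 (RelA) is a subunit of NF-κB, the factor that carries signals from Toll-like receptors and cytokine receptors to inflammatory genes. In resting cells IκB proteins hold most of it in the cytoplasm, and a smaller amount is found on DNA. IL-4 acts through its receptor and the factor STAT6, not through the classical NF-κB pathway, and turns macrophages to the alternatively activated state, which is known for arginase, chitinase-like proteins, and chemokines such as CCL17, CCL22, and CCL24.

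The sequences of 10 p65 sites are printed first because the results below turn on them: 3 with a peak in all samples and large rises after IL-4, 2 with the largest falls, 2 with a peak in the IL-4 samples alone, 2 with a peak in the untreated samples alone, and the promoter of Tnfaip3, where the score was among the highest of all and no change passed the test. Each is the 200 bases around the centre of the site, on the plus strand of mm10 (GRCm38, RefSeq), and capitals mark matches, on either strand, to letters given in the account of motifs.
Nek10, chr14:14843080-14843279: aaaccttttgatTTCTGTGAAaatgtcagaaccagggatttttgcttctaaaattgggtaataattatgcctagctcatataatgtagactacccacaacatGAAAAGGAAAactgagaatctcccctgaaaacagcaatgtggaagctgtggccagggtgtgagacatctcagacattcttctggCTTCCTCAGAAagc
Cd33, chr7:43530448-43530647: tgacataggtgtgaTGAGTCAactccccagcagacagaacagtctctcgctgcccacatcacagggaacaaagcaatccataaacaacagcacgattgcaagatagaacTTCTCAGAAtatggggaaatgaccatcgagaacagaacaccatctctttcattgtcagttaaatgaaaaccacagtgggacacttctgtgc
Rad51b, chr12:79641936-79642135: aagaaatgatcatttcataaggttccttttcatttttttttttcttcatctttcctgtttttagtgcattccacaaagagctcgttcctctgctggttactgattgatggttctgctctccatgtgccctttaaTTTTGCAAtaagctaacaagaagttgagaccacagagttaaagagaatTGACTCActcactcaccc
Nek6, chr2:38436074-38436273: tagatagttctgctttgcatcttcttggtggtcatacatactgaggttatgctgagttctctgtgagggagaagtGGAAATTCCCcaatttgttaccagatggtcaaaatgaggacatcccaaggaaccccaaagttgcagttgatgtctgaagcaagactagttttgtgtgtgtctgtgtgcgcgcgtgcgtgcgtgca
Slc28a3, chr13:58552006-58552205: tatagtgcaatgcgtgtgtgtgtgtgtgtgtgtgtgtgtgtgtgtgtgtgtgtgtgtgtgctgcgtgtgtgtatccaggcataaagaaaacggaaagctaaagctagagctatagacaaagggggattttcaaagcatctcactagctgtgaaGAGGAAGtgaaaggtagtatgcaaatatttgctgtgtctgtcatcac
Slc30a4, chr2:122712020-122712219: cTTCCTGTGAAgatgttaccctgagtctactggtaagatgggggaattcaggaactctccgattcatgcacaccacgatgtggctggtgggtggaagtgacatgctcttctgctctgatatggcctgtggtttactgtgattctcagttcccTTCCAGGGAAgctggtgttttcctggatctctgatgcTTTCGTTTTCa
Chi3l4, chr3:106221661-106221860: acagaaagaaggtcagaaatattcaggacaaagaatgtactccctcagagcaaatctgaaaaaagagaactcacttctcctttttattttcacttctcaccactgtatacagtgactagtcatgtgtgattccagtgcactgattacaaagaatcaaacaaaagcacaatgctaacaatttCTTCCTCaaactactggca
Irak3, chr10:120191269-120191468: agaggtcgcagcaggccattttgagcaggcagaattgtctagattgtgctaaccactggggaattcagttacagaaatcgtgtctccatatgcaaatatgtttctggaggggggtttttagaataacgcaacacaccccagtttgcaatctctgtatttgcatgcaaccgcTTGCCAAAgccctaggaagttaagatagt
Atg16l2, chr7:101213789-101213988: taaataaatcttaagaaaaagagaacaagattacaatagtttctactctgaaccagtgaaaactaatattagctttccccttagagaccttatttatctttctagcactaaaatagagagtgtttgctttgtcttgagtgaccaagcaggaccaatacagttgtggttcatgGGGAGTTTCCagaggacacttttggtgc
Tnfaip3, chr10:19015383-19015582: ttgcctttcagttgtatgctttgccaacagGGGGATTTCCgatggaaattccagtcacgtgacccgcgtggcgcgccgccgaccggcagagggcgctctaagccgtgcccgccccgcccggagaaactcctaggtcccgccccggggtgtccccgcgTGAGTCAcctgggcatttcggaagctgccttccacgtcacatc
The Nek10 and Slc30a4 sites hold the STAT letters with a spacer of 4 bases, Cd33 holds those with a spacer of 3 bases and an AP-1 match, Rad51b holds an AP-1 and a C/EBP match, and Nek6, Atg16l2, and Tnfaip3 hold a κB match.

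The IL-4 samples had slightly more p65 peaks than the untreated samples, and their highest scores were lower. The untreated samples held 9706 and 9556 peaks, and the IL-4 samples held 11026 and 10253. After 1 hr of LPS the number was 26305 and 26820, and after IL-4 and LPS it was 36738 and 38955. A peak's score comes from the peak caller as a −log10 p- or q-value, so it has no unit and grows with sequencing depth as well as with enrichment. Its median was 6.81 and 7.23 in the untreated samples against 6.35 and 6.41 in the IL-4 samples, and its 90th percentile was 22.9 and 23.1 against 17.9 and 17.8. Depth per sample is not known from these lists. The lists gave no check of p65 itself. As a check of the cell type, 6 of 8 macrophage markers had an RNAPII-pS5 peak in all 4 samples of the same groups, including Csf1r, Itgam, Lyz2, and Cd68. The summed scores were 153 and 169 in untreated and 160 and 184 in IL-4 samples. No peak was annotated under the symbols Adgre1 and Spi1, and other names of these genes were not searched. Markers of other cells were mostly without a peak (2 of 6 T cell, 2 of 6 B cell, 1 of 7 neutrophil, 1 of 6 fibroblast, 1 of 4 dendritic cell, and 0 of 4 mast cell genes had a peak in all 4). The summed score of the T cell list was 33.8 to 37.8 in untreated and 17.1 to 20.8 in IL-4 samples, and that of the neutrophil list was 8.7 to 14.95 against 4.19 to 6.01. Their part in the results was not tested.

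Peaks that overlapped by at least 1 bp were merged, which gave 18359 p65 sites. Of these, 4370 (23.8%) had a peak in all 4 samples, 1426 had one in both IL-4 samples and in no untreated sample, and 976 had one in both untreated samples and in no IL-4 sample. For comparison, the 4 ways of having a peak in exactly 1 sample of each group held 355 to 437 sites each, fewer than either. A further 7581 sites (41.3%) had a peak in a single sample. The 2 untreated samples shared 6551 sites (68.0% and 69.0% of their sites) and the IL-4 samples shared 7007 (63.9% and 68.7%), whereas an untreated and an IL-4 sample shared between 5875 and 6073 sites, 61.0% to 63.9% of the former and 54.9% to 58.2% of the latter. Over the 4370 sites with a peak in all samples, Pearson's r of the log2 score was 0.838 between the untreated samples, 0.790 between the IL-4 samples, and 0.690 to 0.696 between the groups, given as descriptions across sites. Samples of one group were thus more alike than samples of different groups by the number of shared sites and by r. The percentages met, 63.9% being the lowest share within a group and the highest between groups.

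**Figure D1:**
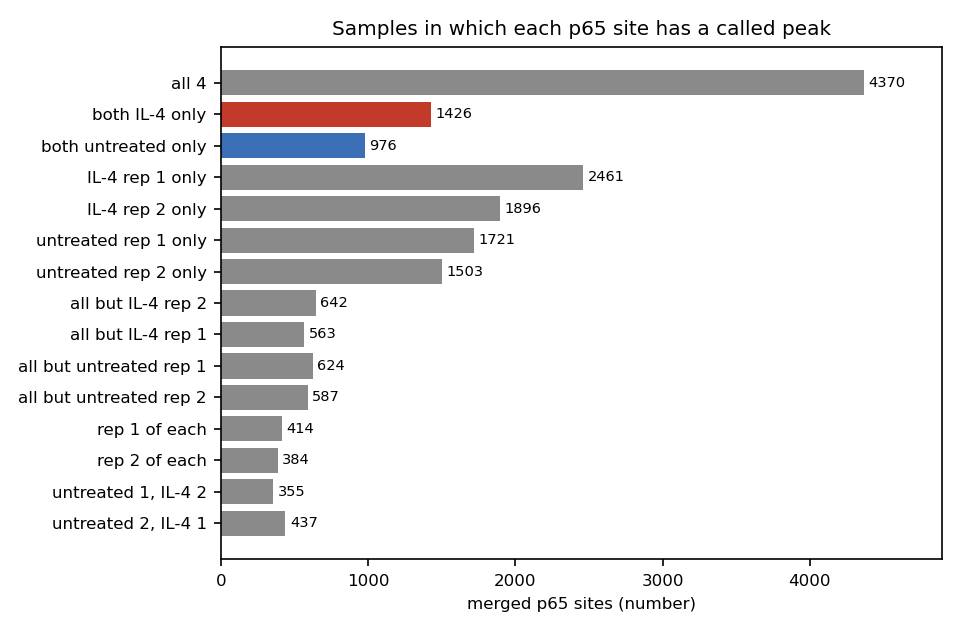
Number of merged p65 sites (x axis) for each combination of samples with a called peak (y axis), over 18359 sites in 2 untreated and 2 IL-4 samples. Sites with a peak in both IL-4 samples only (1426, red) and in both untreated samples only (976, blue) each outnumber every combination of 1 untreated and 1 IL-4 sample (355 to 437).

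After IL-4, more p65 sites were called higher than lower, but the margin depended on the normalization, and most of the calls rest on the presence or absence of a peak. Of 10778 sites with a peak in at least 2 samples, limma called 1808 higher (16.8%) and 1231 lower (11.4%) at an unadjusted p of at most 0.05. With the Benjamini-Hochberg adjustment over all of them, 1071 (9.94%) remained higher and 517 (4.8%) lower. Unadjusted calls were 1645 higher and 1463 lower when the samples were not centred on their medians, and 1525 and 1400 with quantile normalization. Where a sample had no peak the lowest score in the lists (1.31) was used, so that a peak in 1 group alone nearly fixes the call: 1410 of the 1426 sites seen in IL-4 alone were called higher and 929 of the 976 seen in untreated cells alone were called lower. Those counts describe which peaks passed the caller and give no size of a change.

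Where a peak was present in all 4 samples, rises and falls were balanced. Of these 4370 sites 228 were called higher and 210 lower, and 18 and 16 with the adjustment. Fitted alone, they gave 420 higher and 392 lower calls, 6 and 6 of them with the adjustment, a median log2 change of −0.02, and a range from −1.13 to 1.17 between the 5th and the 95th percentile, against a median standard error of 0.40 per site. When any 1 of the 4 samples was left out, limma called 1526 to 1826 sites higher and 831 to 1267 lower at an unadjusted p of at most 0.05, and 0 sites passed the adjustment.

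Large rises were found among the sites with a peak in all 4 samples, and 10 of them are described here. In an intron of Rad51b, a gene of DNA repair by recombination, the site at +345 kb (chr12:79641697-79642323) scored 6.33 and 5.56 in the untreated and 28.9 and 26.2 in the IL-4 samples. The log2 change was 2.40 ± 0.32 (SE, n = 2 against 2, as for all changes below), with a limma adjusted p of 0.039. Here and below the adjustment was over all 10778 tested sites. Of the 1071 higher and 517 lower sites that passed it, 1049 and 497 had a peak in 1 group alone. Adjusted p-values from the fit of sites with a peak in all samples alone are not given for single sites. In an intron of Cd33, which encodes a sialic acid-binding inhibitory receptor of myeloid cells, the score at +2.62 kb went from 4.35 and 2.94 to 20.7 and 14.4 (log2 change 2.46 ± 0.41, limma adjusted p of 0.042). The groups did not overlap at either site, by the same scores that the sites were chosen on. At −20.3 kb of Csf3r, the receptor for G-CSF, the scores were 3.85 and 11.2 in untreated and 27.8 and 26 in IL-4 samples (2.22 ± 0.63, limma adjusted p of 0.11), and at −32.6 kb of Flt1, a receptor for VEGF, they were 7.15 and 5.22 against 35.4 and 22.3. The spread between the untreated samples was wide at Csf3r and at Nek10, where they scored 2.64 and 9.95 against 24.3 and 35.5. The other 5 of the 10 sites named for their rise were annotated to 1700040N02Rik, Auh, Bex6, Itsn1, and Gm4262, with log2 changes of 2.11 to 2.34, and that of Gm4262 was the 1 site of the 10 within 1 kb of a start site, where 14.9% of all sites with a peak in all 4 samples lay.

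The largest fall among sites with a peak in all 4 samples was at −75.5 kb of Nek6, a mitotic kinase. The site chr2:38435962-38436458, which overlaps an LTR repeat, scored 39.6 and 33.7 in untreated and 4.67 and 4.51 in IL-4 samples, a log2 change of −2.80 ± 0.32 (limma adjusted p of 0.039). At +58.8 kb of Slc28a3, a nucleoside transporter, the scores were 40.6 and 35.0 against 5.68 and 5.49 (−2.57 ± 0.32, limma adjusted p of 0.039). In an intron of Prex1, an exchange factor for Rac in myeloid cells, the site at +86.1 kb went from 35.3 and 38.1 to 6.82 and 5.11 (−2.45 ± 0.33). These falls were from scores well above the median of 11.6 and 12.0 that sites in all 4 samples had in the untreated cells. At −6.93 kb of Cd300a, an inhibitory receptor of myeloid cells, the scores were 16.3 and 23.8 against 4.1 and 2.97. The remaining 6 of the 10 largest falls were at Zdhhc6, Enpp4, Susd1, Vamp8, Cdhr3, and Cyb561a3, with log2 changes from −2.37 to −2.00. In all 10 both IL-4 samples were below both untreated samples, but the sites were chosen by these same scores.

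The strongest peak found in the IL-4 samples alone was at −9.46 kb of Slc30a4, a zinc transporter, with scores of 43.2 and 46.5 (chr2:122711850-122712392). The next was at −2.28 kb of Chi3l4, a chitinase-like gene of the alternatively activated state, with scores of 16.4 and 35.0. Others of high score were at Flrt3, at −56.2 kb of the neutrophil chemokine Cxcl5 (28.8 and 18.3), at −31.3 kb of Cblb, a ubiquitin ligase, at +18.5 kb of Pde4b, a phosphodiesterase of cyclic AMP, at Tmed10, Marcks, and Anxa4, and at −12.0 kb of the immediate-early gene Ier3 (26.4 and 14.98). For these sites the untreated samples gave no peak at all, and no fold is given.

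In the untreated samples alone, the strongest peak lay in an intron of Irak3, at +10.2 kb (chr10:120191155-120191545), with scores of 37.9 and 36.4. Irak3 encodes IRAK-M, an inhibitor of Toll-like receptor signalling. The peak was present in all LPS samples, with scores of 84.7 and 102 after LPS and 52.1 and 42.5 after IL-4 and LPS. Further peaks of this kind were at Atg16l2 (32.9 and 27.1), Dennd6a, Tex29, Rala, Emr4, and Pttg1, at +279 kb of the hepatocyte growth factor gene Hgf (27.99 and 25.9), at +182 kb of the forkhead factor gene Foxp1, and at +309 kb of Maf (24.2 and 31.7), which encodes a macrophage transcription factor. None of these 20 sites lay within 1 kb of a start site, beside 14.8% of all sites seen in IL-4 samples alone and 12.8% of those seen in untreated samples alone.

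**Figure D2:**
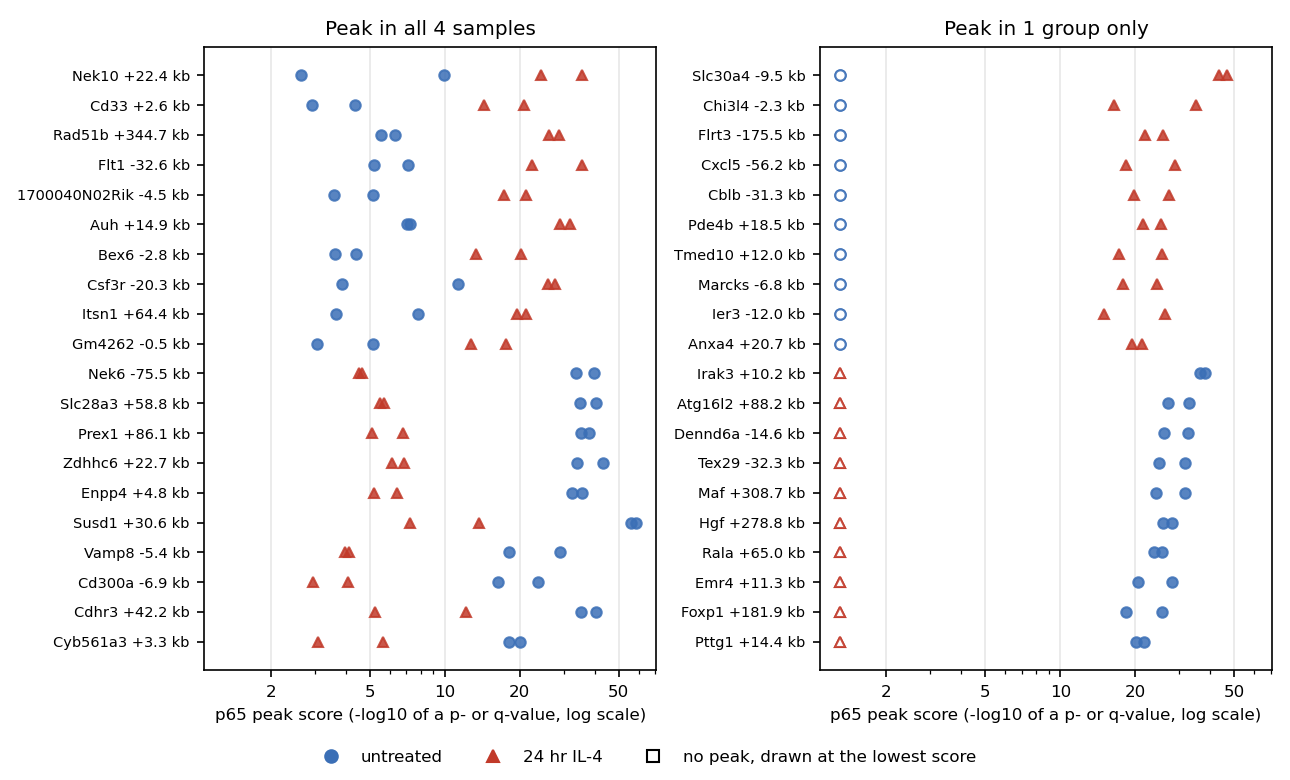
p65 peak scores (x axis, log scale, a −log10 p- or q-value) in each untreated (blue circles) and IL-4 (red triangles) sample at 10 large rises and the 10 largest falls among sites with a peak in all 4 samples (left) and the 10 strongest sites of each kind seen in 1 group alone (right). Labels give the nearest gene and the distance to its start site, and open symbols stand for no peak, drawn at the lowest score of 1.31. In the left panel the 2 groups are apart at each site, and the sites were chosen by these same scores.

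None of the 10 sites with the highest scores passed the test. The promoter of Tnfaip3, which encodes the NF-κB inhibitor A20, scored 149 and 140 in untreated and 125 and 116 in IL-4 samples (log2 change −0.08 ± 0.31), and an intronic site of the same gene, at +2.5 kb, scored 155 and 154 against 125 and 137. At −7.99 kb of the chemokine gene Cxcl16 the scores were 159 and 118 against 160 and 148. At +2.42 kb of Sod2, the mitochondrial superoxide dismutase, they were 145 and 128 against 92.0 and 88.6 (−0.41 ± 0.32), and at +13.2 kb of Fpr2, a formyl peptide receptor, 141 and 150 against 87.0 and 74.0 (−0.67 ± 0.31, limma adjusted p of 0.28). The groups were apart at Sod2 and Fpr2 without passing the test, and the changes are relative to a shift of −0.19 in the log2 score that the centring removed. The highest of all, near Arid1b, with 252 and 260 against 180 and 230, overlaps a simple repeat. The other 4 were annotated to Papss1, Pdgfrb, 4933426M11Rik, and A530013C23Rik.

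The genes of NF-κB subunits and their feedback inhibitors mostly carried p65 at their promoters before IL-4. A promoter site of Tnip3 was called higher and 1 of 2 promoter sites of Rel was called lower, and no other promoter site of the list passed the test. All 21 genes of the list had a p65 site. Of 80 tested sites 14 were higher and 11 lower (17.5% and 13.8%, beside 16.8% and 11.4% of all sites), with a median log2 change of −0.11 beside 0.12. Of the 43 with a peak in all samples 3 were higher and 2 lower, with a median of −0.15 beside −0.02. These shares are near the background.

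At the promoter of Nfkb2 (−0.102 kb), which encodes the p100 precursor, the scores were 70.3 and 74.5 in untreated and 53.2 and 50.8 in IL-4 samples (log2 change −0.29 ± 0.31). The promoter of Nfkbia (−0.143 kb), the gene of IκBα, scored 58.1 and 61.2 against 41.4 and 58.2 (−0.09 ± 0.37). At Nfkbib, the gene of IκBβ, the scores of 119 and 86.8 against 88.6 and 97.8 overlapped. Nfkb1 had 31.3 and 37.0 against 26.4 and 23.9 at its start site, and Birc3, an inhibitor of apoptosis, 65.6 and 78.5 against 63.8 and 59.4. Most of these raw scores were lower after IL-4 without passing the test, and high scores were lower in the IL-4 samples genome-wide. After the centring, which removed a shift of −0.19, the log2 changes were 0.06 at Nfkbib, −0.25 at Nfkb1, and −0.03 at Birc3.

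Sites around the same genes moved in both directions. Downstream of Nfkbia, 3 sites at +18.6, +26.1, and +42.1 kb had a peak in the IL-4 samples alone, with scores of 12.5 and 17.7 at the first. The promoter of Tnip3, an A20-binding inhibitor, was higher, with 46.3 and 46.4 in untreated and 75.9 and 79.2 in IL-4 samples (0.93 ± 0.31, limma adjusted p of 0.16), and so was a site at −52.4 kb of Rel, which encodes c-Rel, with 7.51 and 9.88 against 26.4 and 21.0 (1.64 ± 0.34, limma adjusted p of 0.059). At the promoter of Rel the site at −0.482 kb scored 7.66 and 9.86 in untreated samples and had no peak after IL-4. Its lower call thus rests on the missing peak, for which the lowest score was used. The site at −0.02 kb, with 8.69 and 7.29 against 6.15 and 6.36, did not pass the test. Lower calls included the site at +3.03 kb of Zc3h12a, the gene of the ribonuclease Regnase-1, with 65.4 and 52.3 against 14.6 and 21.2 (−1.55 ± 0.41, limma adjusted p of 0.096), and the site at −9.47 kb of Tnip1, with 31.5 and 43.7 against 14.04 and 7.61. The calls of Rel at −52.4 kb, Zc3h12a, Tnip1, and Tnip3 did not pass the adjustment over all sites. At Nfkbiz, which encodes the nuclear protein IκBζ, 3 sites were lower and 1 higher of 13 tested.

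Inflammatory cytokine and chemokine genes had 53 tested sites, of which 8 were higher and 8 lower (15.1% each, beside 16.8% and 11.4% of all sites). The median log2 change was −0.10 beside 0.12. Among the 33 with a peak in all samples 1 was higher and 3 lower. The median of the 33 was −0.35, beside −0.02 over all such sites, and was not set against sites of like height. The lower sites were at +8.97 kb of Ccl3 (14.3 and 18.1 against 4.19 and 6.49), at −21.9 kb of Il12b (14.96 and 18.9 against 5.2 and 5.44, −1.47 ± 0.33), and at −33.6 kb of Nos2, the inducible nitric oxide synthase (22.8 and 29.7 against 9.16 and 7.4, −1.47 ± 0.34, limma adjusted p of 0.072). At these 3 the groups were apart, by the same scores that gave the calls. Peaks at the promoter of Ccl7 and at −5.32 kb of Cxcl11, 2 chemokine genes, were found in untreated samples alone. Peaks in the IL-4 samples alone included the promoter of the chemokine gene Ccl12 (12.6 and 6.59), −23.6 kb of Ccl6, and −57.8 kb of Il12a (9.27 and 13.7). At −64.7 kb of Il6 the scores were 70.6 and 81.8 against 40.8 and 39.1, and at the promoter of Cxcl10 51.6 and 62.4 against 38.3 and 23.0. Both sets were apart, and neither passed the test (log2 changes of −0.74 ± 0.31 and −0.75 ± 0.39).

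Of 65 tested sites at genes of Toll-like and NOD-like receptor signalling, 12 were higher and 10 lower (18.5% and 15.4%, beside 16.8% and 11.4% of all sites). The median was −0.06 beside 0.12. The promoter of Tlr2, a receptor of bacterial lipoproteins, fell from 46.0 and 45.7 to 22.7 and 18 (−0.99 ± 0.32, limma adjusted p of 0.15). It was the single call among the 26 sites with a peak in all samples. Tlr4, the LPS receptor, had 3 sites with a peak in the IL-4 samples alone, at +15.5, +24.4, and +565 kb, whereas its promoter was lower, with 7.07 and 5.67 in untreated samples and a peak of 2.7 in 1 IL-4 sample. Tlr9, a receptor of microbial DNA, had lower sites at −0.095 and +0.574 kb, the latter with 9.96 and 11.5 in untreated samples and no peak after IL-4. Peaks in IL-4 samples alone were also called at the promoters of Irak4, Nod1, and Pycard, all with scores under 7.

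Genes of alternative activation and the IL-4 response showed more rises. Of 76 tested sites 23 were higher and 1 lower (30.3% and 1.32%, beside 16.8% and 11.4%), and the median log2 change was 0.39 beside 0.12. With a peak in all samples, 5 of 34 were higher and none lower, with a median of 0.22. In 12 of 12 alternative fits, most of which kept sites seen in 1 group alone, more sites of the list were higher than lower. The 5 were at Batf3, Arg1, Ccl24, Edn1, and Klf4. At −11.6 kb of Batf3, a transcription factor of the AP-1 family, the scores were 10.4 and 12.2 in untreated and 31.4 and 25.7 in IL-4 samples (1.52 ± 0.32, limma adjusted p of 0.061). At −2.95 kb of Arg1, the arginase gene, they were 3.1 and 6.8 against 11.4 and 18.3 (1.84 ± 0.58, limma adjusted p of 0.14). At −9.47 kb of the eosinophil chemokine gene Ccl24 they were 4.75 and 4.58 against 8.63 and 14.8. Single calls here mostly failed the adjustment when a peak was present in all samples. The groups did not overlap at these 3, by the same scores that gave the calls.

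Of the 23, 16 were sites with a peak in the IL-4 samples alone. They included sites at +11.4 kb of Cish, a STAT-induced inhibitor of cytokine signalling (14.4 and 15.3), at −132 kb of the repressor gene Bcl6 (10.5 and 18.2), at −0.647, +95.6, and +109 kb of Socs1, at −7.72 kb of the scavenger receptor gene Cd36, at −15.7 kb of the lectin gene Mgl2 (5.34 and 8.48), and at −22.3 kb of the mannose receptor gene Mrc1 (3.48 and 3.72). The last is little above the score of the lowest peaks. The single lower site was at +9.21 kb of Pdcd1lg2, which encodes PD-L2, where another site at +31.8 kb was higher.

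Macrophage lineage and surface genes had 13 higher and 5 lower of 64 tested sites (20.3% and 7.81%, beside 16.8% and 11.4% of all sites), but 1 higher and 3 lower of the 33 with a peak in all samples. The fall at −27.4 kb of the cholesterol transporter gene Abca1 was from 26.7 and 34.1 to 11.9 and 12.1 (−1.14 ± 0.33, limma adjusted p of 0.12), and that at −258 kb of Runx1 from 47.5 and 53.1 to 24.4 and 14.8. Cebpa, which encodes C/EBPα, had 3 sites with a peak in the IL-4 samples alone, including its promoter (10.2 and 6.54). AP-1 and immediate-early genes had 8 higher and 9 lower of 70 sites (11.4% and 12.9%, beside 16.8% and 11.4%). The single call among the 36 with a peak in all samples was at +151 kb of Maf. That site scored 18.3 and 18.5 in untreated and 4.37 and 4.57 in IL-4 samples (−1.86 ± 0.31, limma adjusted p of 0.042). Interferon response genes had 3 higher and 4 lower of 35 (8.57% and 11.4%, beside 16.8% and 11.4%), with a median of −0.04. The promoter of Gbp5, a guanylate-binding protein, was lower (9.31 and 12.5 against 5.33 and 3.41, limma adjusted p of 0.17).

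Sites were also grouped by lists of genes that the study had sorted by their RNA response in such cells. The lists were made from expression, not from p65, but the cells are of the same kind, so they are not independent evidence of direction. For the 4 clusters induced by IL-4, the calls were 26 higher and 2 lower of 54 sites (cluster A), 90 and 13 of 260 (B), 110 and 45 of 491 (C), and 139 and 29 of 427 (D). The share higher was thus 48.1%, 34.6%, 22.4%, and 32.6%, beside 16.8% of all sites, and the median log2 changes were 1.25, 0.79, 0.30, and 0.66. Cluster E, the genes repressed by IL-4, had 109 higher and 140 lower of 947 (11.5% and 14.8%), with a median of −0.11. Of the higher calls in clusters A to D, 20, 66, 86, and 109 were at sites seen in the IL-4 samples alone, where the call is nearly fixed. Over sites with a peak in all samples, 4 of 18, 16 of 103, 15 of 199, and 12 of 138 were higher. Lower there were 0, 3, 5, and 6, beside 228 higher and 210 lower of all 4370 such sites. The medians of clusters A to D at these sites were 0.35, 0.17, 0.09, and 0.15. That of cluster E was −0.11, and the calls in cluster E were 12 higher and 31 lower of 437. In 12 of 12 alternative fits, most of which kept sites seen in 1 group alone, clusters A to D had more higher than lower calls. Cluster E had more lower than higher calls in 10 of 12, and the order turned when either untreated sample was left out, with 115 higher and 92 lower without ctrl_ctrl replicate 1 and 113 and 89 without replicate 2. The share lower in cluster E was above that of all sites in each of the 12.

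Genes induced by LPS were split by the study into those that IL-4 attenuated, left, or increased. Sites at attenuated genes had 113 higher and 111 lower calls of 918 (12.3% and 12.1%), with a median of −0.06. Over the 433 of these with a peak in all samples 15 were higher and 23 lower, with a median of −0.10. The balance moved with the setting, to 32 higher and 60 lower when those 433 were fitted among such sites alone, to 102 and 149 without centring, to 128 and 80 without ctrl_ctrl replicate 1, and to 128 and 69 without ctrl_ctrl replicate 2. Sites at genes not changed had 132 and 101 of 866 (15.2% and 11.7%, median 0.08). At genes whose LPS response was greater after IL-4, 67 were higher and 15 lower of 240 (27.9% and 6.25%), with a median log2 change of 0.52, although over the 116 with a peak in all samples it was 0.06, with 13 higher and 6 lower.

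**Figure D3:**
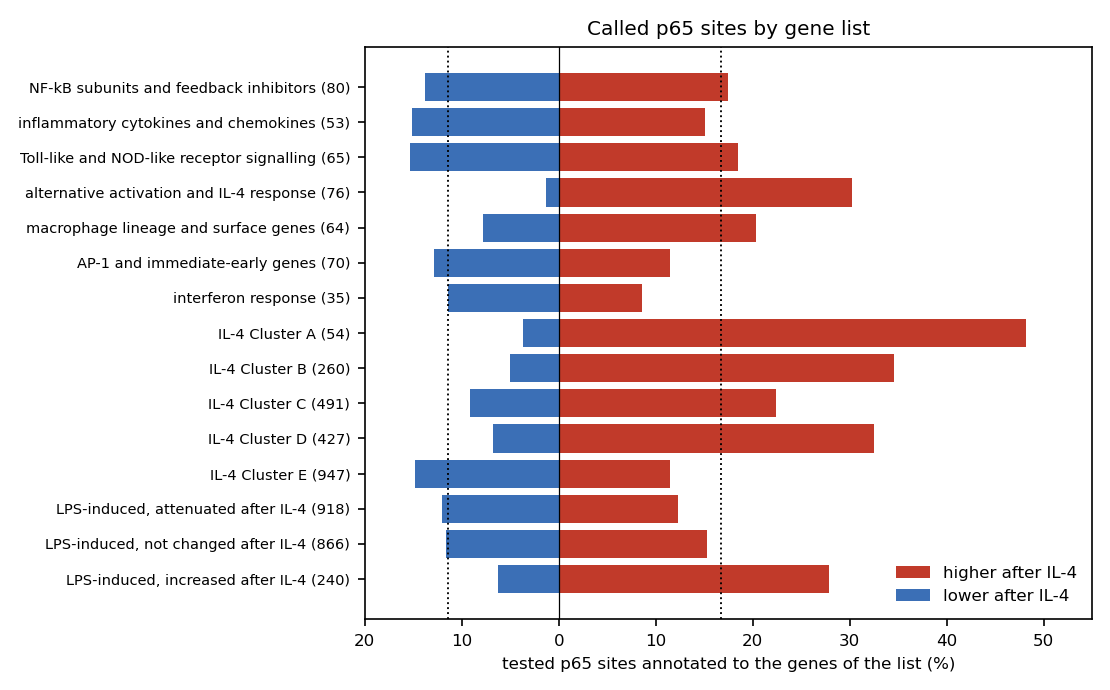
Share of tested p65 sites called higher (red, to the right) or lower (blue, to the left) after IL-4, in percent, for sites annotated to the genes of each list, with the number of tested sites in parentheses. Dotted lines mark the shares over all 10778 sites, 16.8% higher and 11.4% lower. The bars farthest past the right line are those of IL-4 clusters A, B, and D, alternative activation, and the LPS-induced genes increased after IL-4 (27.9% to 48.1%). Past the left line, the bars of Toll-like and NOD-like receptor signalling, cytokines, and cluster E are the longest (14.8% to 15.4%).

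Single genes with several called sites, picked after their values were seen, included Igf1, the growth factor made by alternatively activated macrophages, with 5 higher of 7 tested sites. At its site at −53172 bp from the start site the scores were 10.8 and 17.1 in untreated and 45.5 and 32.5 in IL-4 samples, and at −28908 bp they were 5.28 and 6.28 against 17.6 and 16.4. Dock10 had 5 higher of 9, Prdm1, the gene of the repressor Blimp-1, 4 higher of 12, and Ctsk, the gene of cathepsin K, 3 of 3. All higher sites of Prdm1 and Ctsk had a peak in the IL-4 samples alone. In the other direction, Maf had 5 lower and 1 higher of 17, Prex1 had 4 lower of 6, Fat3 had 4 lower of 5, and Ctla4 had 3 lower of 5. Over all tested sites 16.8% were higher and 11.4% lower. Of the 6134 genes with a tested site, 1504 had a higher site, 1091 had a lower one, and 212 had both.

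Sequence around the peak differed between rising and falling sites. The letters searched on both strands were GGGNNTTTCC and GGGNNTTCCC for κB, TTCNNNGAA and TTCNNNNGAA for STAT (spacers of 3 and 4 bases), TGANTCA for AP-1, GAGGAAG for PU.1, TTGCNNAA for C/EBP, and GAAANNGAAA for the ISRE. The 2 κB spellings differ in 1 letter and cannot match at the same place in the same direction, but a stretch can match both STAT spacers or STAT and PU.1 at overlapping places, as at Nek10. In the 200 bases around the centre, κB letters were found in 9.46% of 1808 higher and 25.2% of 1229 lower sites, beside 15.2% of 10773 tested. STAT letters with a spacer of 4, the form STAT6 is known to prefer, were found in 16.0% of higher and 5.45% of lower sites, beside 8.43%, and those with a spacer of 3 in 9.85% and 6.27%, beside 7.66%. AP-1 letters were in 20.1% of higher and 7.49% of lower sites, beside 13.3%. C/EBP (18.4% and 15.1%), PU.1 (20.8% and 25.6%), and ISRE letters (3.93% and 5.45%) differed less.

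The κB letters also went with the height of the peak, at 40.8% of the 1092 highest and 9.43% of the 1092 lowest scoring sites with a peak in all samples. Among all 4370 sites with a peak in all samples, fitted alone, those called higher held κB letters in 17.1% and those called lower in 31.7%, and STAT letters with a spacer of 4 in 15.7% and 5.37%. By the call of the fit over all sites the difference at such sites was 22.8% against 36.4% for κB. The median log2 change was −0.25 at 1640 tested sites with κB letters and 0.20 at those without, and −0.15 and 0.03 where all samples had a peak. At the latter sites the median score was 18.9 in untreated and 14.8 in IL-4 samples with κB letters, and 10.4 and 9.64 without. High scores were lower in the IL-4 samples genome-wide, and sites of like height were not compared. With the STAT letters of spacer 4 it was 0.70 against 0.08 (0.27 and −0.04 where all samples had a peak), and with AP-1 letters 0.47 against 0.07 (0.17 and −0.04). In windows of 400 bases κB letters were in 11.8% of higher and 27.5% of lower sites, and spacer 4 STAT letters in 23.2% and 9.6%. A match is a description of the letters in the window. The Chi3l4 and Irak3 sequences printed above, at which the calls were opposite, held neither a κB nor a STAT match.

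**Figure D4:**
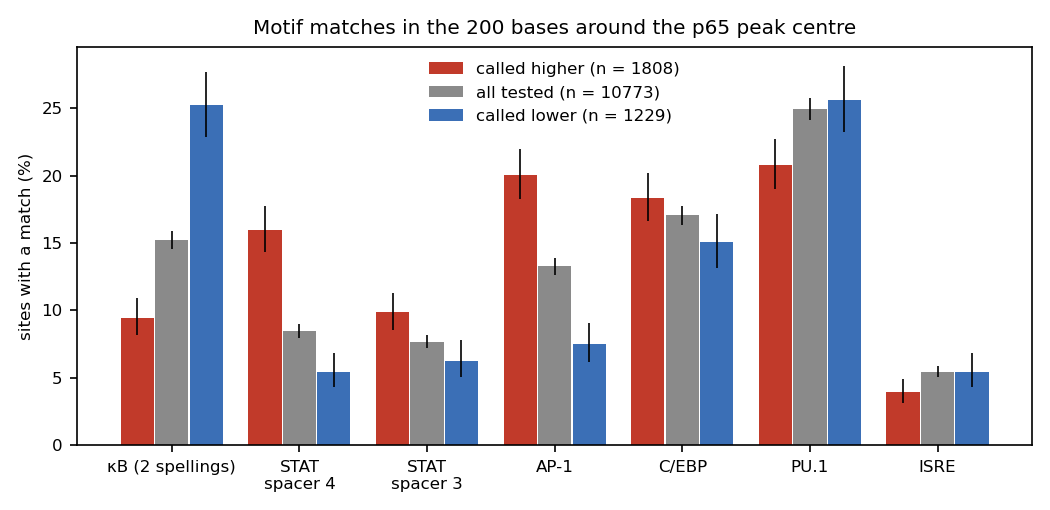
Share of p65 sites (y axis, percent) with a match to each motif in the 200 bases around the centre, for sites called higher (red), all tested sites (grey), and sites called lower (blue), with 95% Wilson intervals that cover counting error over sites only. κB letters were in 9.46% of higher and 25.2% of lower sites, and STAT letters with a spacer of 4 in 16.0% and 5.45%.

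RNA polymerase II was measured in separate libraries of the same groups and moved with p65. RNAPII-pS5 and RNAPII-pS2 are the forms phosphorylated on serine 5 or 2 of the tail repeat, found mostly at initiation and during elongation. At 11161 p65 sites tested for RNAPII-pS5, 1811 were higher (16.2%) and 1492 lower (13.4%). Among 1285 sites with higher p65, 541 had higher RNAPII-pS5 (42.1%) and 50 had lower (3.89%), with a median log2 change of 0.92. Among 539 sites with lower p65, 24 were higher (4.45%) and 191 lower (35.4%), with a median of −0.68. At sites where p65 was not called the shares were 8.35% and 14.3%.

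The RNAPII-pS2 calls had the same order. Over 13487 sites, 2147 were higher (15.9%) and 2530 lower (18.8%). Of 1511 sites with higher p65, 651 had higher RNAPII-pS2 (43.1%) and 76 lower (5.03%), and of 718 sites with lower p65, 22 were higher (3.06%) and 338 lower (47.1%). The difference was larger away from start sites: RNAPII-pS5 rose at 46.1% of distal and 21.2% of promoter sites (within 1 kb of a start site) with higher p65, and fell at 39.0% of distal and 18.3% of promoter sites with lower p65. At promoter sites with higher p65, RNAPII-pS2 rose at 16.2% and fell at 13.1%, near the shares over all sites.

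The order was also seen where RNAPII peaks were present in all samples. Among sites with an RNAPII-pS5 peak in all 4 samples, 24.96% of those with higher p65 were higher and 4.27% lower, and 4.48% of those with lower p65 were higher and 21.6% lower, beside 10.03% and 10.03% of all. For RNAPII-pS2 the shares were 35.8% and 5.45%, and 5.87% and 29.9%, beside 15.1% and 13.8%. Most of these p65 calls still rest on absent p65 peaks. Where both p65 and RNAPII-pS5 had a peak in all their samples, 47 of 231 sites with higher p65 (20.3%) had higher RNAPII-pS5 and 11 lower, and 5 of 139 with lower p65 were higher and 34 lower (24.5%), beside 7.33% and 12.9% of the 2210 such sites. For RNAPII-pS2 they were 83 and 19 of 301, and 7 and 63 of 179, beside 11.4% and 16.9% of 2793. Across sites the changes of p65 and RNAPII-pS5 had a Pearson's r of 0.470 (7260 sites), or 0.302 over 2210 sites with all peaks present, and those of p65 and RNAPII-pS2 one of 0.515 (8467 sites) and 0.323 (2793 sites). These are descriptions across sites, neighbouring sites share a gene, and whether the libraries came from the same cultures is not given in the sources used here. Exceptions were seen: at Prex1 (+86.1 kb), with lower p65, RNAPII-pS5 was higher (log2 change 2.19), and at −2.95 kb of Arg1, with higher p65, it was lower.

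**Figure D5:**
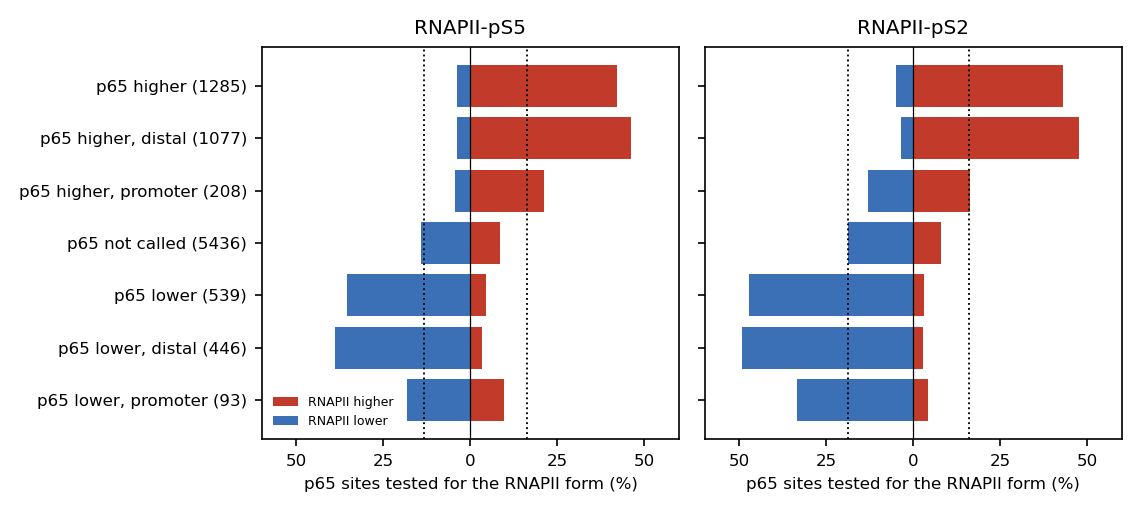
Share of p65 sites tested for RNAPII-pS5 (left) or RNAPII-pS2 (right) at which that form was called higher (red, to the right) or lower (blue, to the left) after IL-4, by the p65 call, in percent. Numbers in parentheses are the sites tested for RNAPII-pS5, and dotted lines mark the shares over all p65 sites. Red bars are longest where p65 was higher (42.1% for RNAPII-pS5) and blue bars where it was lower (35.4%), and both are shorter at promoters.

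Called sites lay farther from start sites than sites not called, and so did sites with a peak in all 4 samples, most of which were not called. Of all tested sites 17.2% were within 1 kb of a start site (95% Wilson interval 16.5% to 17.9%), against 14.4% of higher (12.8% to 16.1%) and 12.2% of lower sites (10.5% to 14.1%). The share was 18.7% of sites not called and 14.9% of sites with a peak in all 4 samples (13.8% to 16.0%). The median distance to the nearest start site was 16.0 kb over all, 18.6 kb for higher, and 17.8 kb for lower sites. It was 15.2 kb for sites not called and 17.5 kb for sites with a peak in all 4 samples. Simple repeats made up 1.68% of all tested sites, 0.553% of higher, and 0.731% of lower, and LTR elements 5.82%, 6.14%, and 8.45%.

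Other antibodies of the series, in untreated cells and after 1 hr of IL-4, show what else was bound at the called sites. A p300 peak, the mark of a histone acetyltransferase at enhancers, was found in at least 1 of 4 samples at 99.3% of higher and 94.0% of lower sites, beside 98.3% of all tested sites. A peak of the myeloid factor PU.1 was found at 85.1% and 79.2%, beside 85.1%, and a region of H3K27Ac, a mark of active enhancers and promoters, at 74.0% and 54.0%, beside 70.6% of all tested sites. In the untreated samples both libraries had a p300 peak at 90.5% of the sites whose p65 peak was found after IL-4 alone, near the 89.5% of all tested sites. Where the antibody had a peak in all its samples, p300 was greater after 1 hr of IL-4 at 53.0% of higher and 35.4% of lower sites (40.3% of all tested), H3K27Ac at 51.7% and 36.3% (44.9%), and PU.1 at 53.1% and 39.6% (45.2%). These are shares above 0 with no test of single sites.

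The IL-4 change of p65 was also measured under LPS, in 4 samples that the calls did not use. Of the 1808 sites higher after IL-4 alone, 1340 (74.1%) had a log2 change above 0 between 24hIL4_1hLPS and ctrl_1hLPS, and of the 1231 lower sites 902 had one below 0, leaving 26.7% above 0, beside 49.1% of all tested sites. The medians were 0.56, −0.32, and −0.01. Pearson's r between both changes was 0.370 over 10778 sites and 0.326 over 3952 with a peak in all 8 samples. At sites seen in IL-4 alone the LPS samples scored 12.3 and 11.9 without IL-4 and 19.5 and 20.6 with it, as medians over peaks present. Over all tested sites these medians were 16.2 and 16.3 without IL-4 and 19.5 and 20.7 with it. Of the sites seen in IL-4 alone, 63.0% had a peak in both LPS samples without IL-4, fewer than the 77.4% of all tested sites.

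The size of the change was compared between both settings. Tested as an interaction in limma over all 8 samples, the IL-4 change differed at 2118 of 10778 sites at an unadjusted p of at most 0.05 and at 406 with the adjustment. Of the latter, 267 were sites higher and 125 sites lower after IL-4 alone, and the sign was the opposite under LPS at 170 and 69 of them. At 382 of the 406 the unstimulated peak was in 1 group alone, so that the change without LPS, and with it the size of the difference, depended on the score given to a missing peak. Among the 3952 sites with a peak in all 8 samples, the change differed at 346 at an unadjusted p of at most 0.05 and at 7 with the adjustment over all sites. At Nek6 the LPS samples scored 67.0 and 86.0 without IL-4 and 73.3 and 67.9 with it, and at Auh 85.7 and 83.5 against 106 and 90.1. In both cases the difference seen without LPS was smaller after it. At Slc30a4 IL-4 went with higher scores under LPS as well (21.4 and 19.5 against 109 and 116).

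Enhancers that the study assayed by eRNA or ChIP-qPCR were placed by their primers. Of 17 assays, 14 had a p65 site within 500 bp, and 2 of these, both at Il1b, overlap and share 1 site. The enhancer Edn1_-42Kb, near the endothelin gene, was higher, with 6.64 and 5.15 in untreated and 14.6 and 9.66 in IL-4 samples (1.21 ± 0.39, limma adjusted p of 0.15), and Hbegf_+43Kb had a peak in the IL-4 samples alone (9.37 and 9.67). Abca1_-27Kb and Irak3_+10Kb were the lower sites given above. At Nlrp3_-1.3Kb, near the inflammasome sensor gene, the scores were 59.4 and 58.4 against 38.9 and 37.2 (−0.44 ± 0.31), at Tlr2_-21Kb 82.6 and 96.8 against 62.0 and 67.3, and at the enhancer of Il1b 25.5 and 40.5 against 16.4 and 23.2 (−0.53 ± 0.44). All 3 were lower in both IL-4 samples without passing the test, and so was IL-18_+25Kb (14.04 and 11.72 against 8.4 and 8.48). These are raw scores, and high scores were lower in the IL-4 samples genome-wide. How often the groups were apart over all sites was not counted. Clec4d_-9Kb (11.61 and 13.19 against 10.12 in 1 IL-4 sample) and Cd14_+25Kb (6.74 and 4.65, in 1 sample of each group) did not pass the test. Klf4_-34Kb had a peak in 1 IL-4 sample alone (3.59) and was not tested. At Fos_-5Kb (31.6 and 45.0 against 38.3 and 22.8) and Cxcl11_-11Kb (38.2 and 30.4 against 29.2 and 33.0) the groups overlapped.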

How the data were processed

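ChIP-seq peak lists of BMDMs were used, 28 of 56 lists being read and 28 not used. Per the submitters' processing notes the tools were BWA 0.7.10, SAMtools 0.1.19, MACS2 2.0.10, and HOMER 4.2, with mm10. The authors aligned the reads with BWA, ran MACS2 on every sample by itself (stated q-value cut-off of 0.01), removed ENCODE blacklist regions, and annotated peaks to the nearest start site with HOMER. The deposited peak score is a −log10 p- or q-value, as inferred from the values, and 0.0618% to 0.127% of the p65 peaks scored under 2, the score of the stated cut-off. For H3K27Ac the deposited value is a HOMER signal of normalized tags per region. No read totals were given, so depth and the precision it allows are unknown. The study describes replicates as independent, and with 2 against 2 an exact permutation test of a single value could not go below p = 0.333.

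Peaks of the 4 samples that overlapped by at least 1 bp were merged, and sites with a peak in at least 2 samples were tested. A sample without a peak received the lowest score (1.31 for p65, 1.59 for RNAPII-pS5, 1.39 for RNAPII-pS2), log2 scores were centred on the median of sites with a peak in all samples, and limma 3.58.1 (R 4.3.3) compared the groups with an empirical Bayes fit and the Benjamini-Hochberg adjustment. Calls used an unadjusted p of at most 0.05. RNAPII was fitted in the same way at the p65 sites, and the interaction with LPS came from a fit of 8 samples, the LPS samples being centred on the 3952 sites with a peak in all 8. On simulated scores of 4370 sites, 68% of 4-fold and 23% of 2-fold changes were called, with 4.94% of unchanged sites. When simulated low scores were removed as missing peaks, these were 42%, 16%, and 8.23%. The shares hold for the spread put into the scores. This spread was the average over all 10778 tested sites. Those where 1 sample of a group had no peak and received the lowest score were included. It was put on sites with a peak in all samples, and was not compared with their own spread (median standard error of 0.40).

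Sites were named by rule: sites of listed genes with a peak in all samples or a call, the 10 largest of the remaining changes and the 10 strongest sites of 1 group alone in each direction, the 10 highest scores, and the enhancers assayed by the study. Sites of 2 genes that the rule also selects are not reported here. The comparison, the members, and the lists were chosen with earlier results of these data known. Listed genes and markers were matched by the listed symbol alone, so a site annotated under another name would be missed. Motifs were searched in GRCm38 (RefSeq). Alternatives were no centring, quantile normalization, other floors, overlaps, and filters, the replicate number as a block, all 8 p65 samples in the fit, and leaving out each sample. Scores of at least 2 and leaving out repeats were added after seeing the data. Python 3.11.15 was used for the rest.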

Additional observations from a re-analysis of the deposited data

Results flagged for a closer look

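The change of p65 after IL-4 differed with and without LPS, by limma's interaction with the adjustment over 10778 sites, at 406 sites. At the named sites among them, the values below are the log2 change under LPS minus that without it. At 382 of the 406 a peak was absent from both samples of 1 unstimulated group, and the size then depends on the score given to a missing peak. With a peak in all 8 samples, 7 of 3952 sites passed.

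Among sites with a peak in all samples the difference was −2.34 at Auh and 2.43 at Nek6. At sites seen in the IL-4 samples alone it was −3.10 at Slc30a4, −3.08 at Flrt3, −4.09 at Cxcl5, −3.23 at Pde4b, −4.14 at Tmed10, −2.99 at Marcks, and −3.11 at Anxa4. At sites seen in the untreated samples alone it was 3.38 at Irak3, 3.37 at Atg16l2, 3.09 at Dennd6a, 3.92 at Maf, 3.89 at Hgf, 2.48 at Foxp1, and 3.46 at Pttg1.

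Among the listed genes it was −3.77 at Nfkbia (+18.6 kb), −2.88 at Tnfaip3 (−18.5 kb), −3.48 at Tnip1 (+28.6 kb), −3.35 at Ccl12, −3.97 at Ccl6, −4.06 at Irak4, and −3.25 at Tlr4 (+15.5 kb). It was 2.57 at Tlr9 and 2.58 at Ifnar2, both seen in untreated samples alone. At genes of alternative activation it was −2.52 at Cd36, −2.61 at Edn1 (+27.6 kb), −2.45 at Mrc1, −2.96 at Plin2, and −2.97 at Socs1 (+95.6 kb), and at macrophage genes −3.08 at Csf1r, −2.49 at Fcgr2b, and −2.98 at Msr1.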

How the results depend on the processing

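Counts of higher and lower p65 sites (1808 and 1231) were within 1.5 times in both directions for no centring, quantile normalization, no filter, an overlap of at least 100 bp, a floor 4 times as high, all 8 p65 samples in the fit, scores of at least 2, and leaving out repeats and chromosome Y. The excess of higher over lower calls was smaller without centring (1645 and 1463) and with quantile normalization (1525 and 1400). The counts were 420 and 392 with a peak in all 4 samples, 1009 and 531 with the upper 50% of peaks, and 1071 and 517 with the adjusted p. The upper 50% of peaks gave 782 sites seen in IL-4 alone and 588 in untreated samples alone. For RNAPII-pS5 (1811 and 1492) the counts were 640 and 640 with a peak in all samples and 1031 and 756 with the adjusted p, and for RNAPII-pS2 (2147 and 2530) 1309 and 1193, and 1286 and 1447. The cause was not tested, beyond fewer sites being tested or called by construction.

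Leaving out 1 sample gave 1526 to 1826 higher and 831 to 1267 lower p65 sites, the fewest lower without an untreated sample (874 without replicate 1 and 831 without replicate 2). For RNAPII-pS5 the ranges were 1442 to 1815 and 1083 to 1544, and for RNAPII-pS2 1755 to 1971 and 1824 to 2799. Of 371 named sites tested, 166 were called, and 108 of these were called in every such fit. With a floor 4 times as high, the log2 change turned above 0 at 10 lower sites seen in untreated samples alone, at 0.016 (Il1a), 0.054 (Aim2), 0.022 (Nfkb1, −8.2 kb), 0.19 (Tlr5, Tnfaip3 at −62.8 kb, Il23a, and Egr1), 0.17 (Itgam), 0.034 (Msr1), and 0.12 (Irf2).

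Same-numbered samples did not deviate together (r of −0.0177 for p65, −3.2e-05 for RNAPII-pS5, and 0.029 for RNAPII-pS2), so the numbers were not taken to pair the samples. The replicate block gave 1757 higher and 1131 lower p65 sites, and 0 with the adjusted p. Depth is unknown and limits what a missing peak means.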
